A study of Mus musculus with 25 samples.

Results

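The duodenum of mice with an Aldh2 knock-in (KI_Con) was compared with that of wild-type mice (WT_Con), both on the control diet, by sequencing of polyadenylated RNA. The comparison takes every library that carries these labels, which is 8 of the 25 libraries of the series, with 4 KI_Con and 4 WT_Con. WT_Con mice were male C57BL/6N. KI_Con mice are labelled Aldh2KI, and the sources used here do not give the altered allele, its genetic background or whether the wild types were littermates. Both groups started at an age of 8 weeks and were fed for a further 8 weeks. Their diet held no ethanol, and whether they were gavaged is not stated. A second set of mice, with 6 KI_Half and 7 WT_Half libraries and no library in common with the first, also started at an age of 8 weeks. These mice had 2.5% ethanol in the diet for 8 weeks with 2 g/kg ethanol by gavage 2 times per week. This set is used only to look at the same genotype difference again. The WT_Full mice, with 4 libraries, started at the same age and had 5% ethanol for 8 weeks with 4 g/kg by gavage 2 times per week. Their libraries enter the fit of all 25 libraries. Tissue of ethanol-fed mice was taken 9 h after a last gavage, stated as 5 g/kg. The labels number the libraries of a group but do not say that each is a separate animal, so p-values measure the spread between these libraries.

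Aldh2 encodes an aldehyde dehydrogenase of the mitochondrial matrix, which turns the acetaldehyde made from ethanol into acetate. It works as a tetramer and also clears aldehydes that arise without ethanol, such as those from lipid peroxidation. In people a common variant leaves the enzyme nearly inactive, and carriers accumulate acetaldehyde after drinking. The duodenum takes up sugars, amino acids, fat, iron and sterols through villus enterocytes, is renewed from crypt stem cells, and holds mucus-secreting Brunner glands under its first stretch. It lies between the stomach and the rest of the gut and is attached to the pancreas. The control diet asks which duodenal transcripts differ with the Aldh2 genotype when ethanol is absent.

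Library totals were 27.3 to 32.7 M (mega) counts in KI_Con and 29.5 to 44.8 M in WT_Con, and levels below are counts per M counts (CPM) after TMM normalisation. All 10 duodenal enterocyte genes were counted, with a summed level of 20550 to 26880 CPM in KI_Con and 14210 to 22670 CPM in WT_Con. The 5 counted of 8 ileum genes summed to 78.4 to 111.5 CPM in KI_Con and 82.2 to 101.3 CPM in WT_Con. WT_Con replicate 3 stood apart from the other libraries through stomach transcripts. The 5 counted of 10 gastric genes summed to 2.82 to 43.8 CPM in KI_Con, against 4.76, 3.17, 17000 and 74.2 CPM in WT_Con replicates 1 to 4. The surface mucin Muc5ac had 0 to 3.396 CPM in KI_Con and 2045 CPM in that WT_Con library. Brunner gland content varied in both groups. The 6 counted of 8 Brunner gland genes summed to 1451, 1264, 12160 and 2152 CPM in KI_Con, against 12000, 1786, 56280 and 35330 CPM in WT_Con. The Brunner gland sum was highest in WT_Con replicates 3 and 4, and close to 12000 CPM in KI_Con replicate 3 and WT_Con replicate 1. Dmbt1, a member of this list, had 1040 to 1253 CPM in KI_Con and 1159 to 1749 CPM in WT_Con. It made up most of the sum in KI_Con replicates 1 and 2 and in WT_Con replicate 2. The sums therefore understate how widely gland content ranged. A separate gland score, averaged on the log2 CPM scale, was 5.95, 4.16, 11.74 and 8.45 in KI_Con. In WT_Con it was 11.77, 3.55, 14.07 and 13.38. The 22 counted of 25 pancreatic acinar genes summed to 4443 to 11670 CPM in KI_Con and 3273 to 6522 CPM in WT_Con and none of the counted genes of these lists was at 0 in every library. Acinar content was more uneven than these sums show. The acinar list also holds Zg16 and Klk1, which are on the goblet cell list too, so part of each sum can come from goblet cells. The acinar enzyme precursor Ctrb1 had 993, 317, 1.93 and 1.66 CPM in KI_Con, against 477, 1.03, 404 and 52.0 CPM in WT_Con, so both groups held acinar-rich and acinar-poor libraries. In bulk tissue, fewer cells of a type and less RNA per cell cannot be told apart.

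**Figure D1:**
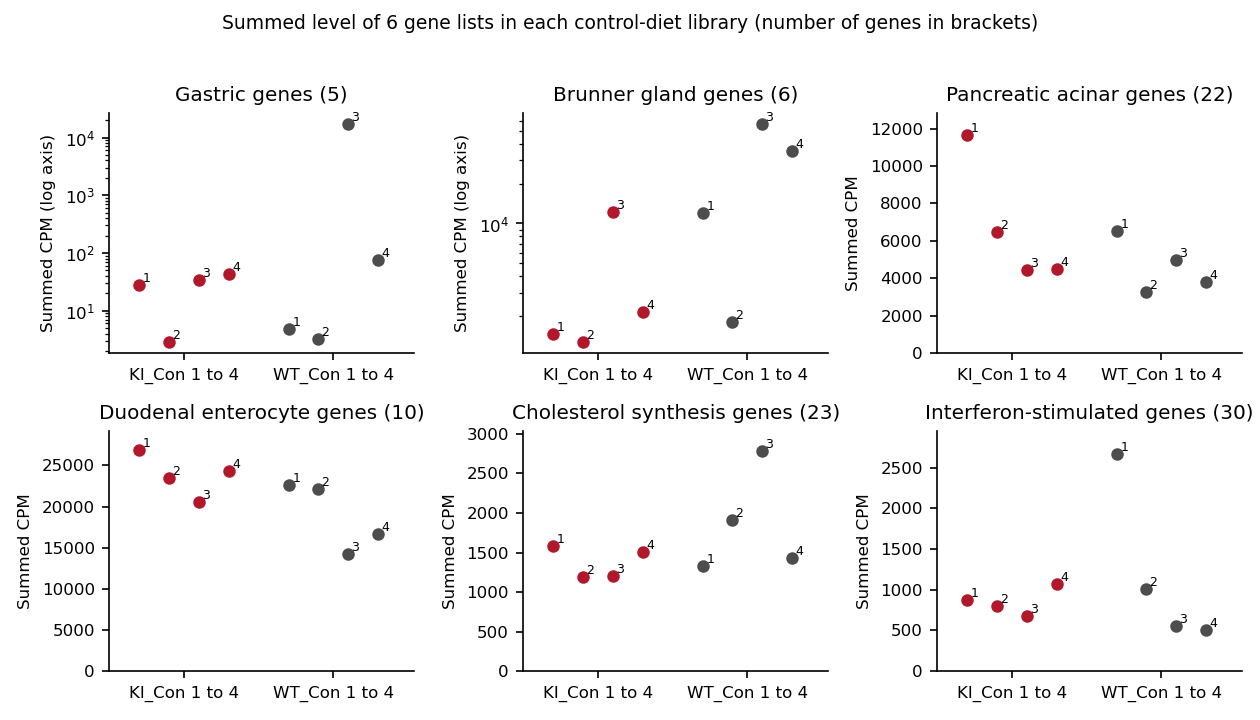
Summed CPM of 6 gene lists in the 4 KI_Con (red) and 4 WT_Con (grey) libraries, each point labelled with its replicate number. The y axis is logarithmic for gastric and Brunner gland genes and starts at 0 for the others. WT_Con replicate 3 has 17000 CPM of gastric genes where no other library passes 74.2, and WT_Con replicate 1 has 2672 CPM of interferon-stimulated genes where no other library passes 1075.

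No gene passed the threshold. The quasi-likelihood F test of edgeR with Benjamini-Hochberg adjustment called 0 of 16813 genes (0.00%) at an adjusted p under 0.05, and 1664 genes (9.90%) had an unadjusted p under 0.05, of which 677 were higher in KI_Con and 987 lower. On the same libraries DESeq2 called 11 genes (0.0690%), 7 higher and 4 lower, and limma-voom called 2 (0.0119%), both higher. The levels of 770 genes did not overlap between the groups (4.58%), with 500 higher in every KI_Con library (2.97%) and 270 lower (1.61%). The number of large negative differences depended on WT_Con replicate 3. A log2 difference of -1 or below was found for 522 genes and of 1 or above for 125, against 275 and 144 without that library. Without it, 808 of 16853 genes had an unadjusted p under 0.05 (4.79%), while without WT_Con replicate 1 the count was 2796 of 16864 (16.6%). It was 860 without KI_Con replicate 1, 864 without KI_Con replicate 4 and 2497 without WT_Con replicate 2.

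The gene closest to the threshold was Tmem116, which encodes a membrane protein with several membrane-spanning segments whose function is little known. Tmem116 (ENSMUSG00000029452) lies on chromosome 5 of GRCm38, 121451893 to 121524183 on the plus strand, and its end is 41.8 kb from Aldh2. Its level was 16.4, 14.8, 13.7 and 12.6 CPM in KI_Con, against 3.89, 5.49, 3.66 and 3.38 CPM in WT_Con. Every KI_Con library was above every WT_Con library, and within each group the highest and lowest library differed by less than the gap between the groups. The means were 14.3 ± 1.64 CPM in KI_Con and 4.11 ± 0.949 CPM in WT_Con (SD, n = 4 each), a 3.49-fold difference. With edgeR the log2 difference was 1.79 ± 0.19 (SE) with an adjusted p of 0.0593. DESeq2 called the gene (adjusted p = 1.04e-15), as did limma-voom (0.0214), the edgeR fit of all 25 libraries (0.00587), edgeR with a covariate for Brunner gland content (0.0422) and edgeR without WT_Con replicate 2 (0.0185). In each of these edgeR fits it was the only call (0.00588%, 0.00595% and 0.00593% of genes). Over all edgeR fits that left out 1 library the adjusted p ran from 0.0185 to 0.431.

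**Figure D2:**
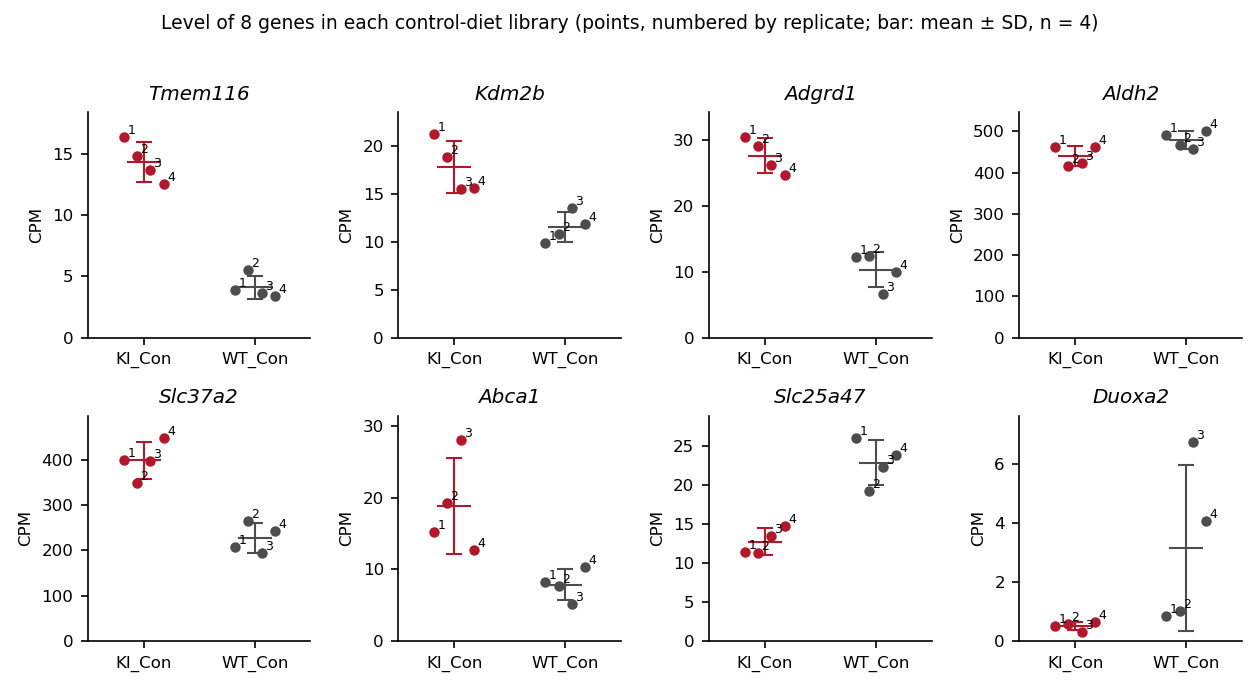
CPM of 8 genes in the 4 KI_Con (red) and 4 WT_Con (grey) libraries, with points numbered by replicate and a bar for the mean ± SD (n = 4). Tmem116, Kdm2b, Adgrd1, Slc37a2 and Abca1 lie higher and Slc25a47 and Duoxa2 lower in every KI_Con library, while Aldh2 overlaps at 417 to 462 CPM in KI_Con and 456 to 502 CPM in WT_Con.

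The start of Tmem116 faces that of Erp29, which encodes a chaperone-like protein of the endoplasmic reticulum and runs from 121428590 to 121452506 on the minus strand. The 68 bases that lie between the outermost annotated start of Erp29 and the next start of Tmem116 are shown because both genes had higher values in every KI_Con library. The sequence, from chr5:121452507-121452574 (plus strand, RefSeq promoter table, GRCm38.p6), is in no annotated exon of either gene. The capitals mark the motif TGCGCATGC, the core of the sequence bound by the transcription factor NRF1, at position 32.
Tmem116 and Erp29 start region: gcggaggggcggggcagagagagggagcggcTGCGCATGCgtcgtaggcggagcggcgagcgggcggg
The stretch is 79.4% G and C, and on either strand the motif was found in 422 of 32851 promoter windows of 250 bases (1.28%). A match of letters is a description and not a measured site. Erp29 had 67.9, 66.7, 71.0 and 72.1 CPM in KI_Con, against 60.2, 52.0, 60.2 and 62.3 CPM in WT_Con, a log2 difference of 0.23 ± 0.09 that edgeR did not call (adjusted p = 0.502). The longest Tmem116 transcript starts inside Erp29 on the other strand, and the strand setting of the counting is not stated, so reads of that overlap cannot be assigned to either gene.

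Aldh2 itself (ENSMUSG00000029455, chromosome 5, 121566027 to 121593824, minus strand) had 462, 417, 424 and 461 CPM in KI_Con, against 491, 467, 456 and 502 CPM in WT_Con. The groups overlapped, and the log2 difference of -0.13 ± 0.09 was not called by edgeR (adjusted p = 0.618). In the second set of mice the groups also overlapped, and the log2 difference was -0.28 ± 0.14 with edgeR, not called (adjusted p = 0.369). There limma-voom gave -0.39 ± 0.10 and called it (adjusted p = 0.0434), as it did 5.23% of all genes. A count per gene does not show which allele was transcribed, so it checks the presence of the transcript and not the genotype labels. Of 27 genes of alcohol and aldehyde metabolism 26 were tested, 17 had a positive difference, 0 were called and the median log2 difference was 0.13, against -0.02 over all genes. The members with the smallest p were Aldh4a1, an enzyme of proline breakdown, and Aldh16a1, a family member thought to lack catalytic activity. Aldh4a1 had 227, 150, 151 and 204 CPM in KI_Con, against 141, 134, 62.0 and 68.8 CPM in WT_Con, and Aldh16a1 had 184, 166, 158 and 176 CPM in KI_Con, against 143, 146, 100.1 and 148 CPM in WT_Con. Both lay above in every KI_Con library, with log2 differences of 0.84 ± 0.29 and 0.33 ± 0.14, and edgeR called neither (adjusted p = 0.502 for both). Without WT_Con replicate 3 these were 0.66 and 0.22.

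The genes next to the altered locus were also compared. Within 5 Mb of Aldh2 133 genes were tested and 0 were called by edgeR, while 18 had an unadjusted p under 0.05 (13.5%, against 9.90% of all genes). The groups did not overlap for 12 of them (9.0%, against 4.58%), 7 higher and 5 lower in KI_Con. Within 2 Mb the non-overlapping genes were 7 of 79 (8.9%) and within 10 Mb 18 of 251 (7.2%). The median log2 difference within 5 Mb was -0.01, with 63 of 133 genes positive. Besides Tmem116, the genes of this window with the smallest p were Kdm2b, Orai1 and Gm10382. Kdm2b, which encodes a histone demethylase that brings Polycomb complexes to CpG islands, had 21.3, 18.9, 15.6 and 15.7 CPM in KI_Con, against 9.90, 10.8, 13.6 and 11.9 CPM in WT_Con. Orai1, the pore subunit of the store-operated calcium channel, had 35.5, 35.3, 35.3 and 34.1 CPM in KI_Con, against 28.7, 25.6, 22.3 and 28.3 CPM in WT_Con. Gm10382, which has no assigned function, was lower in KI_Con, at 1.19, 1.48, 1.19 and 2.17 CPM, against 2.64, 3.11, 2.67 and 2.91 CPM in WT_Con. All of these separated the groups, with log2 differences of 0.61 ± 0.15, 0.41 ± 0.10 and -0.92 ± 0.25, and edgeR called none (adjusted p = 0.502 for each).

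**Figure D3:**
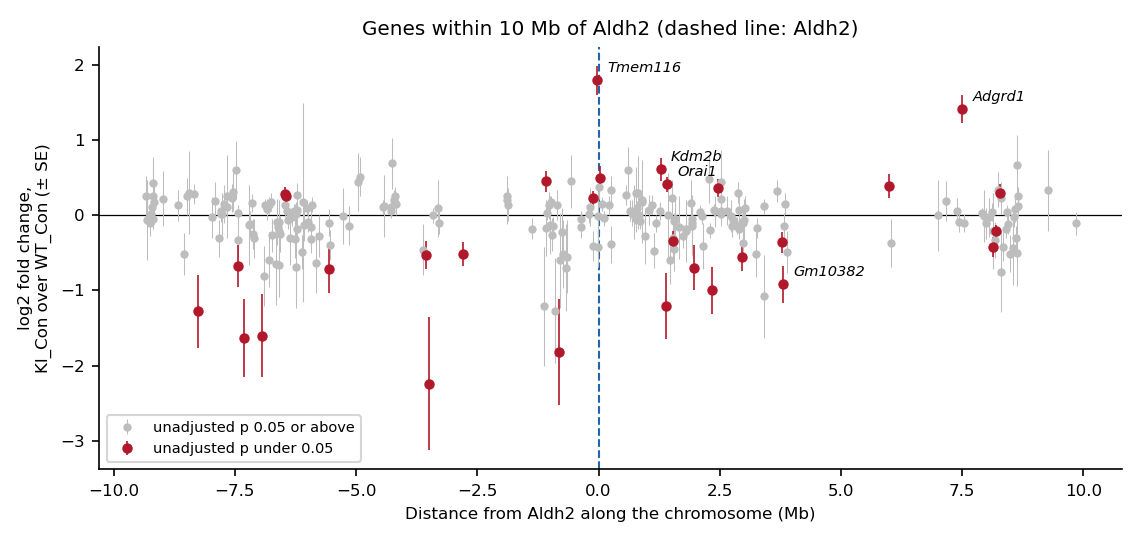
Log2 difference of KI_Con over WT_Con (y axis, ± SE) against the distance of a gene from Aldh2 in Mb (x axis, dashed line at Aldh2) for the 251 genes tested within 10 Mb. Red points are the 30 genes with an unadjusted p under 0.05. They lie on both sides of 0, and Tmem116 at 1.79 and Adgrd1 at 1.41 stand above the rest.

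Adgrd1, which encodes an adhesion G protein-coupled receptor, had the second smallest p of all genes and lies 7.5 Mb from Aldh2 (ENSMUSG00000044017, chromosome 5, 129096750 to 129204599). Its level was 30.6, 29.2, 26.3 and 24.7 CPM in KI_Con, against 12.3, 12.4, 6.69 and 9.99 CPM in WT_Con. Every KI_Con library was above every WT_Con library, and the log2 difference was 1.41 ± 0.19. The adjusted p was 0.319 with edgeR, 1.77e-07 with DESeq2 and 0.0380 with limma-voom.

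The other genes higher in KI_Con with the smallest p include enzymes and transporters of sugar phosphates, nucleosides, amino acids and sterols. Slc37a2, a sugar phosphate exchanger of the endoplasmic reticulum, had 399, 349, 398 and 448 CPM in KI_Con, against 207, 266, 194 and 243 CPM in WT_Con. Upp1, the uridine phosphorylase that splits uridine, had 218, 216, 205 and 236 CPM in KI_Con, against 152, 175, 126 and 154 CPM in WT_Con. Tha1, a threonine aldolase, had 48.8, 47.1, 40.7 and 37.7 CPM in KI_Con, against 32.8, 30.5, 23.6 and 28.7 CPM in WT_Con. None of these groups overlapped. Abca1, the transporter that passes cellular cholesterol to apolipoprotein A-I, had 15.2, 19.2, 27.97 and 12.8 CPM in KI_Con, against 8.24, 7.70, 5.11 and 10.3 CPM in WT_Con. Its mean was 2.39-fold higher, and KI_Con replicate 3 lay well above the other KI_Con libraries. Lhfpl2, a tetraspan membrane protein, had 29.5 to 41.0 CPM in KI_Con and 23.0 to 24.4 CPM in WT_Con, and Eepd1, a nuclease-like protein with a role at stalled replication forks, 58.1 to 83.8 CPM in KI_Con and 32.0 to 48.2 CPM in WT_Con. The log2 differences were 0.80 ± 0.13 for Slc37a2, 0.51 ± 0.11 for Upp1, 0.58 ± 0.13 for Tha1, 1.25 ± 0.29 for Abca1, 0.53 ± 0.11 for Lhfpl2 and 0.73 ± 0.16 for Eepd1. All had an adjusted p of 0.502 with edgeR, and DESeq2 called Slc37a2 (0.000106) and Abca1 (0.0365).

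Genes lower in KI_Con with the smallest p were led by Slc25a47, a mitochondrial carrier best known from liver. Slc25a47 had 11.5, 11.3, 13.5 and 14.8 CPM in KI_Con, against 26.0, 19.2, 22.3 and 23.9 CPM in WT_Con, and no library overlapped. Its log2 difference was -0.85 ± 0.14, with an adjusted p of 0.502 with edgeR and 0.000830 with DESeq2. Pgm3, an enzyme of UDP-N-acetylglucosamine synthesis that feeds glycosylation, had 27.9, 23.5, 23.0 and 20.5 CPM in KI_Con, against 29.8, 36.5, 40.3 and 31.6 CPM in WT_Con. Its log2 difference was -0.55 ± 0.13. Several others had their highest values in WT_Con replicates 3 and 4. Car8, a carbonic anhydrase relative without catalytic activity, had 7.65, 8.80, 11.6 and 9.12 CPM in KI_Con, against 24.5, 10.1, 61.7 and 31.0 CPM in WT_Con. Foxred2, a flavoprotein of endoplasmic reticulum-associated degradation, had 1.5, 0.887, 1.43 and 0.750 CPM in KI_Con, against 2.12, 2.08, 6.71 and 4.67 CPM in WT_Con. Duoxa2, the maturation factor of the hydrogen peroxide source Duox2, had 0.50, 0.591, 0.312 and 0.632 CPM in KI_Con, against 0.834, 1.03, 6.76 and 4.06 CPM in WT_Con. WT_Con replicates 3 and 4 also had the most Brunner gland RNA. KI_Con replicate 3, with 12160 CPM of Brunner gland genes, had the highest Car8 of its group but the lowest Duoxa2 of all these libraries. Its Foxred2 level was below that of KI_Con replicate 1. The log2 differences of Car8, Foxred2 and Duoxa2, at -1.79, -1.78 and -2.66, were -1.24, -1.37 and -1.96 without WT_Con replicate 3. With Brunner gland content as a covariate they were -1.04 ± 0.30 for Car8, -1.34 ± 0.41 for Foxred2 and -1.89 ± 0.71 for Duoxa2, and edgeR called none (adjusted p = 0.807 for each). Gnat2, the cone transducin subunit, the cilium gene Cfap300 and Mfap5 of elastic microfibrils were at most 0.561 CPM in KI_Con and at least 0.384 CPM in WT_Con, with log2 differences of -2.76, -1.81 and -1.41. At such levels a library holds few reads of the gene. The adjusted p was 0.502 with edgeR for all of these, and DESeq2 called Car8, Gnat2 and Duoxa2 (adjusted p from 0.0224 to 0.0487).

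The remaining DESeq2 calls, Ocm and the antigen receptor segments Igkv5-43 and Ighv1-12, are named after their values were seen. Ocm, which encodes the calcium-binding oncomodulin, had 5.75 to 10.1 CPM in KI_Con and 1.83 to 4.62 CPM in WT_Con. Igkv5-43 had 12.3 to 44.9 CPM in KI_Con and 7.79 to 14.7 CPM in WT_Con, and Ighv1-12 had 3.28 to 10.4 CPM in KI_Con and 0.209 to 1.99 CPM in WT_Con. Receptor segments are near-identical copies, so reads may be shared between members and these values are uncertain. In the second set of mice the log2 difference of Ighv1-12 was -2.54 ± 0.80, the opposite sign.

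The KI_Half and WT_Half libraries gave the genotype difference again in other mice. There edgeR called 0 of 16907 genes (0.00%) with 2398 at an unadjusted p under 0.05 (14.2%), DESeq2 called 172 (1.01%) and limma-voom 884 (5.23%). Levels of 45 genes did not overlap between the groups (0.266%). Of the genes tested in both sets, 6 separated the genotypes without overlap in both and with the same sign, which is 6 of 769 on the control diet and 6 of 45 with ethanol, and 0 did so with opposite signs. They were Tmem116, Kdm2b and Gm15446 on chromosome 5, Urah on chromosome 7, Ostf1 on chromosome 19 and Gm49331 on chromosome 12, and apart from Tmem116 and Kdm2b they are named after their values were seen. Tmem116 had 8.01 to 15.0 CPM in KI_Half (median 10.22) and 2.18 to 6.24 CPM in WT_Half (median 3.49). Its log2 difference was 1.52 ± 0.23 there and 1.79 ± 0.19 on the control diet, and the difference between them was -0.28 ± 0.32 (edgeR interaction, unadjusted p = 0.387). Kdm2b had 16.2 to 20.3 CPM in KI_Half and 8.30 to 15.8 CPM in WT_Half, with log2 differences of 0.60 ± 0.14 there and 0.61 ± 0.15 on the control diet. Gm15446, on chromosome 5 but more than 10 Mb from Aldh2, had 1.54, 1.51, 2.15 and 1.19 CPM in KI_Con, against 4.03, 3.59, 2.64 and 2.41 CPM in WT_Con. It also had 1.42 to 2.09 CPM in KI_Half and 3.12 to 4.39 CPM in WT_Half.

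Urah, an enzyme of uric acid breakdown, had 21.7, 20.8, 17.2 and 20.02 CPM in KI_Con, against 15.9, 15.3, 10.8 and 15.2 CPM in WT_Con. It had 19.8 to 24.8 CPM in KI_Half and 15.2 to 19.3 CPM in WT_Half. Ostf1, an adaptor protein with an SH3 domain, differed by only 0.23 on the log2 scale in both sets, with 95.1 to 115 CPM in KI_Con and 86.6 to 93.4 CPM in WT_Con. Gm49331 had 1.07 to 2.04 CPM in KI_Con and 2.15 to 3.75 CPM in WT_Con, and 0.910 to 1.28 CPM in KI_Half and 1.56 to 2.46 CPM in WT_Half. No p-value is given for the joint pattern, and edgeR called none of the 6 genes in either set. Across all 16724 genes tested in both sets, the log2 difference had the same sign for 46.2%, and for 48.3% of the 1653 genes with an unadjusted p under 0.05 on the control diet.

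**Figure D4:**
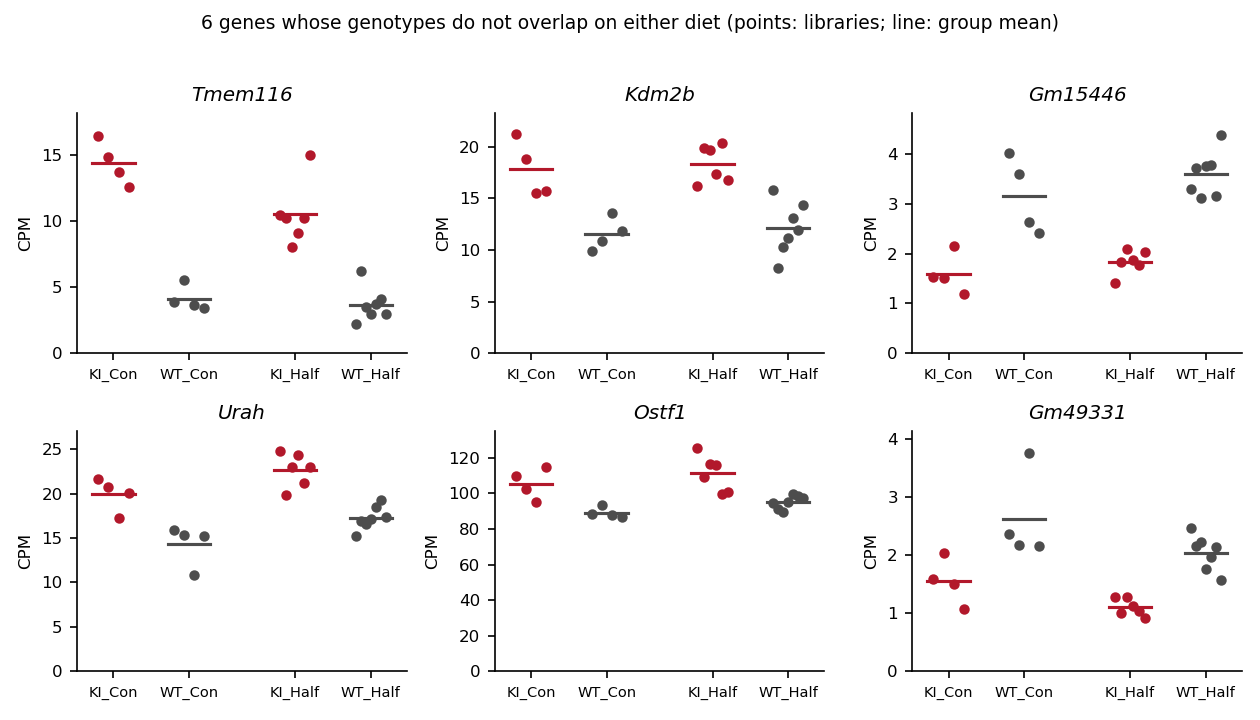
CPM of the 6 genes whose genotypes did not overlap in either set of mice, with KI_Con (n = 4), WT_Con (n = 4), KI_Half (n = 6) and WT_Half (n = 7) from left to right, points for libraries and lines for group means. Tmem116, Kdm2b, Urah and Ostf1 lie higher and Gm15446 and Gm49331 lower in both knock-in groups.

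Other genes with a small p on the control diet had different values with ethanol. Adgrd1 had 11.9 to 21.3 CPM in KI_Half and 5.29 to 15.8 CPM in WT_Half, a log2 difference of 0.34 ± 0.24. Slc25a47 averaged 13.6 ± 2.65 CPM in KI_Half (SD, n = 6) and 13.0 ± 0.803 CPM in WT_Half (SD, n = 7), a log2 difference of 0.07 ± 0.12. The difference of that difference from the one on the control diet was 0.92 ± 0.19, with an adjusted p of 0.327 with edgeR and 0.00985 with DESeq2. Duoxa2, lower in KI_Con, had 0.830 to 371 CPM in KI_Half and 0.863 to 16.4 CPM in WT_Half, a log2 difference of 4.73 ± 1.15. The interaction for Duoxa2 was 7.40 ± 1.77, with an adjusted p of 0.327 with edgeR and 0.00784 with DESeq2. Over all genes edgeR called 0 of 17006 interactions (0.00%) with 2162 at an unadjusted p under 0.05 (12.7%), while DESeq2 called 36 of 15983 (0.225%) and limma-voom 1138 (6.69%). Abca1 kept its sign, at 0.93 ± 0.39 with ethanol, as did Tha1 at 0.48 ± 0.22 and Gnat2 at -1.49 ± 0.52.

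Most genes of nutrient uptake had higher values in KI_Con, with 0 members called by edgeR in every list. The median log2 difference was 0.40 over 13 sugar carriers and disaccharidases, all 13 with a positive difference. It was 0.41 over 11 brush border peptidases, all positive, 0.31 over 19 fat absorption genes, all positive, and 0.41 over 15 amino acid and peptide carriers, 12 positive. Over all genes the median was -0.02 with 46.9% positive. Slc6a19, the main brush border carrier of neutral amino acids, had 579, 564, 476 and 570 CPM in KI_Con, against 419, 406, 184 and 314 CPM in WT_Con. Slc2a7, a hexose transporter, had 107 to 143 CPM in KI_Con and 30.0 to 95.9 CPM in WT_Con, and the starch-splitting Mgam had 5012 to 5758 CPM in KI_Con and 2785 to 5067 CPM in WT_Con. Naaladl1, an aminopeptidase, had 48.1, 64.3, 54.5 and 47.9 CPM in KI_Con, against 31.7, 32.4, 10.5 and 22.0 CPM in WT_Con. The lowest value in each of these was in WT_Con replicate 3. Slc3a2, the heavy chain of amino acid exchangers, had 239 to 312 CPM in KI_Con and 153 to 242 CPM in WT_Con. Ggt1, a glutathione-splitting peptidase, had 1079 to 1569 CPM in KI_Con and 616 to 1229 CPM in WT_Con. Creb3l3, a transcription factor of fat transport, had 643 to 861 CPM in KI_Con and 376 to 642 CPM in WT_Con, and Dgat1, which makes triglyceride, 935 to 1182 CPM in KI_Con and 494 to 981 CPM in WT_Con.

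These medians were smaller without the library that held stomach RNA. Without WT_Con replicate 3 the medians were 0.23 for sugar, 0.20 for peptidase, 0.16 for fat and 0.26 for amino acid genes, with 12 of 13, 10 of 11, 18 of 19 and 12 of 15 positive. The sums of Brunner gland genes given above were higher in WT_Con replicates 3 and 4 than in every other library. In the fit with Brunner gland content as a covariate the medians were 0.27, 0.21, 0.19 and 0.33. In the second set of mice the medians were negative, at -0.42, -0.66, -0.11 and -0.21. Xenobiotic enzymes had a median of 0.32 and 26 of 29 positive, 0.16 without WT_Con replicate 3 and -0.17 in the second set. The carboxylesterase Ces2a had 60.4 to 78.4 CPM in KI_Con and 27.2 to 59.5 CPM in WT_Con, and the sterol sulfotransferase Sult2b1 175 to 231 CPM in KI_Con and 90.8 to 182 CPM in WT_Con.

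**Figure D5:**
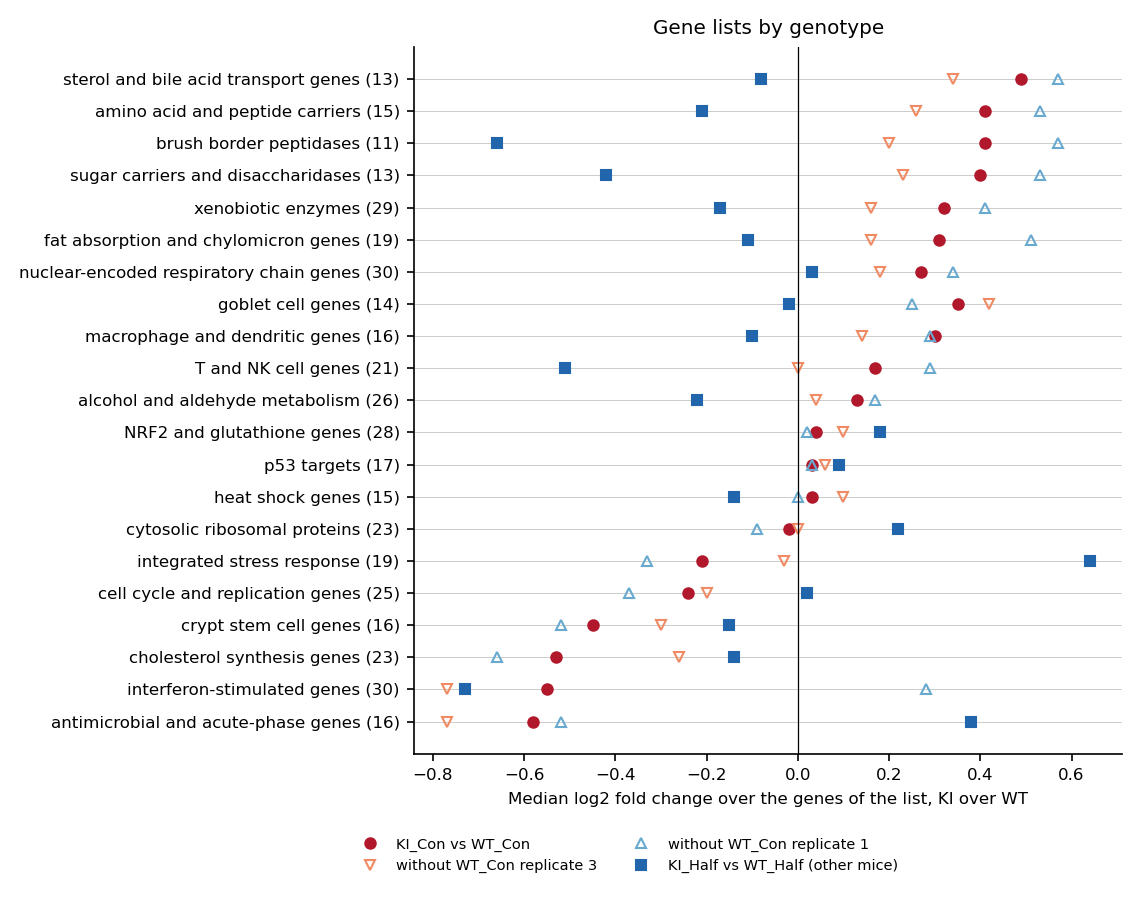
Median log2 difference of KI over WT for 21 gene lists (number of genes tested in brackets) on the control diet (red circles), on the control diet without WT_Con replicate 3 or replicate 1 (open triangles), and for KI_Half over WT_Half (blue squares). Sugar, peptidase, fat and amino acid lists lie right of 0 on the control diet and left of 0 in the ethanol-fed mice, and the interferon list lies at -0.55, or at 0.28 without WT_Con replicate 1.

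Sterol genes had differences of opposite sign by role. Of 15 genes of sterol and bile acid transport 13 were tested, 12 had a positive difference, 7 had an unadjusted p under 0.05 and higher values (4.03% of all genes did), and the median was 0.49. Of 23 cholesterol synthesis genes 22 had a negative difference, 9 had an unadjusted p under 0.05 and lower values (5.87% of all genes did), and the median was -0.53. Slc51a, a subunit of the basolateral bile acid exporter, had 207, 216, 174 and 217 CPM in KI_Con, against 150, 141, 73.6 and 143 CPM in WT_Con, and Abca1 is given above. Idi1, the isopentenyl diphosphate isomerase of sterol synthesis, had 14.6, 11.6, 13.5 and 13.3 CPM in KI_Con, against 11.3, 33.6, 46.3 and 19.6 CPM in WT_Con. Nsdhl, a later enzyme of the pathway, had 14.6 to 18.4 CPM in KI_Con and 17.1 to 30.7 CPM in WT_Con. The groups overlapped for all 23 synthesis genes, and for Idi1 WT_Con replicate 1 was the lowest of all libraries. Without WT_Con replicate 3 the transport list had 11 of 13 positive, a median of 0.34 and 7 genes with higher values at an unadjusted p under 0.05 (2.68% of all genes in that fit), while the synthesis list had a median of -0.26 and 1 gene with lower values (2.12%). In the second set of mice the medians were -0.08 and -0.14.

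Mitochondrial genes had small differences of 1 sign. Of 30 nuclear-encoded respiratory chain genes 30 had a positive difference, from 0.08 to 0.43, with a median of 0.27 and 11 at an unadjusted p under 0.05 (4.03% of all genes were higher at that p). Uqcrc1, a core subunit of complex III, had 865, 778, 765 and 821 CPM in KI_Con, against 602, 724, 532 and 656 CPM in WT_Con. Cox5a of complex IV had 231, 170, 187 and 194 CPM in KI_Con, against 159, 172, 137 and 132 CPM in WT_Con. Without WT_Con replicate 3 all 30 were still positive, with a median of 0.18 and 4 at an unadjusted p under 0.05 (2.68% of all genes). With the Brunner gland covariate 29 were positive, with a median of 0.22 and 3 at that p (2.59% of all genes), and in the second set the median was 0.03 with 22 positive. Genes of fatty acid oxidation had 23 of 26 positive and a median of 0.19, or 0.07 without WT_Con replicate 3. The peroxisomal thiolase Acaa1a had 468 to 551 CPM in KI_Con and 268 to 458 CPM in WT_Con, and the mitochondrial carrier Ucp2 3267 to 3788 CPM in KI_Con and 2471 to 3008 CPM in WT_Con. Both had the opposite sign in the second set, at -0.30 ± 0.18 and -0.38 ± 0.17.

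Most crypt and division genes had negative differences, with 0 called by edgeR and overlapping summed levels. Crypt stem cell genes summed to 487 to 765 CPM in KI_Con and 633 to 1276 CPM in WT_Con, and cell cycle genes to 545 to 719 CPM in KI_Con and 573 to 921 CPM in WT_Con. Of 16 crypt stem cell genes 13 had a negative difference and the median was -0.45, and of 25 cell cycle and replication genes 24 were negative and the median was -0.24. Sox9, a transcription factor of crypt cells that also marks glands, had 20.7, 22.5, 45.9 and 17.9 CPM in KI_Con, against 61.0, 19.4, 149 and 115 CPM in WT_Con. Prom1, a membrane glycoprotein of crypt cells, had 37.0, 38.9, 86.0 and 45.6 CPM in KI_Con, against 97.5, 49.3, 307 and 215 CPM in WT_Con. The Brunner gland sums had the same extremes, with KI_Con replicate 3 highest in its group and WT_Con replicate 2 lowest in its own. Plk1, a mitotic kinase, had 34.6, 25.6, 50.5 and 24.2 CPM in KI_Con, against 40.3, 45.4, 126 and 76.8 CPM in WT_Con, and the cyclin Ccnd1 15.5 to 18.7 CPM in KI_Con and 15.4 to 40.7 CPM in WT_Con. The log2 differences of Sox9 and Prom1 were both -1.70, and with the covariate for Brunner gland content -0.72 ± 0.31 and -0.87 ± 0.27. With that covariate the medians were -0.24 for stem cell and -0.32 for division genes, and without WT_Con replicate 3 they were -0.30 and -0.20. In the second set of mice they were -0.15 for stem cell genes, 13 of 16 negative, and 0.02 for division genes, 15 of 25 positive.

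The sign of the interferon-stimulated list depended on WT_Con replicate 1. On the control diet 28 of 30 had a negative difference with a median of -0.55, and without WT_Con replicate 1 28 of 30 had a positive one with a median of 0.28. Oas2, a sensor of double-stranded RNA, had 6.65, 4.86, 3.43 and 6.99 CPM in KI_Con, against 52.7, 9.00, 10.8 and 4.03 CPM in WT_Con. Oas2 lies 0.82 Mb from Aldh2, inside the 5 Mb window described above, among other Oas genes. Its log2 difference was -1.82 ± 0.70 on the control diet and -1.01 ± 0.39 in the second set of mice, and edgeR called neither. Whether its values go with its position or with the interferon list was not tested. Ifi44 had 2.69, 2.50, 1.84 and 5.02 CPM in KI_Con, against 25.6, 4.89, 1.63 and 2.03 CPM in WT_Con. Apart from WT_Con replicate 1 the groups overlapped for both. In the second set of mice 29 of 30 had a negative difference, with a median of -0.73. Antimicrobial and acute-phase genes had a median of -0.58 with 11 of 16 negative. Of these, 4 had an unadjusted p under 0.05 (5.87% of all genes were lower at that p). Without WT_Con replicate 3 the median was -0.77 with 12 negative, 5 of them at that p (2.12% of all genes in that fit). The median was 0.38 with 13 positive in the second set. Duox2, the epithelial source of hydrogen peroxide, had 1.39, 1.12, 1.90 and 2.17 CPM in KI_Con, against 2.61, 1.39, 51.1 and 12.6 CPM in WT_Con, with its high values in WT_Con replicates 3 and 4.

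The lists of B and plasma cells, of macrophages and dendritic cells, and of T and NK cells had positive medians on the control diet and negative ones in the second set of mice. B and plasma cell genes had a median of 0.36 with 11 of 11 positive, 0.23 without WT_Con replicate 3, and -0.27 in the second set with 2 of 10 positive. All 16 macrophage and dendritic genes had a positive difference with a median of 0.30, none with an unadjusted p under 0.05, and 13 were positive without WT_Con replicate 3. Their median was -0.10 in the second set. T and NK cell genes had a median of 0.17, and 0.00 without WT_Con replicate 3, while in the second set it was -0.51 with 0 of 20 positive. Il18, a cytokine made by enterocytes, had 130, 154, 114 and 116 CPM in KI_Con, against 72.0, 112, 78.7 and 94.0 CPM in WT_Con, and Ccl25, which draws lymphocytes to the small intestine, 604 to 673 CPM in KI_Con and 290 to 517 CPM in WT_Con. Il18 and Ccl25 had log2 differences of 0.51 ± 0.16 and 0.52 ± 0.18, and -0.25 and -0.20 in the second set. Inflammatory cytokine and chemokine genes as a list did not turn negative there. Their median was 0.13 with 10 of 18 positive on the control diet, and 0.31 with 11 of 18 positive in the second set. On the control diet 4 were higher and 1 lower at an unadjusted p under 0.05 with edgeR (4.03% and 5.87% of all genes).

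Stress lists had medians near 0 on the control diet. The median was 0.04 for 28 NRF2 and glutathione genes, 0.03 for 17 p53 targets, 0.03 for 15 heat shock genes, -0.13 for 20 endoplasmic reticulum chaperones and -0.13 for 21 Fanconi and homologous repair genes, whose pathway removes DNA crosslinks such as those aldehydes make. Of 19 genes of the integrated stress response 12 were negative with a median of -0.21, and -0.03 without WT_Con replicate 3, while 18 were positive with a median of 0.64 in the second set. On the control diet 4 of the 19 were higher and 4 lower at an unadjusted p under 0.05 with edgeR (4.03% and 5.87% of all genes). Without WT_Con replicate 3 these counts were 4 and 1 (2.68% and 2.12%). Mthfd2, a mitochondrial folate enzyme of that response, had 13.6, 11.9, 19.2 and 11.6 CPM in KI_Con, against 18.2, 19.2, 54.3 and 34.1 CPM in WT_Con. In the second set it averaged 78.1 ± 25.5 CPM in KI_Half and 45.3 ± 11.9 CPM in WT_Half (SD, n = 6 and 7), and the interaction had an adjusted p of 0.327 with edgeR and 0.0103 with DESeq2. The 28 NRF2 and glutathione genes went both ways, with log2 differences from -2.23 to 0.64. Among them 4 were higher and 3 lower at an unadjusted p under 0.05 with edgeR (4.03% and 5.87% of all genes), or 5 and 1 without WT_Con replicate 3 (2.68% and 2.12%). Gstm3, a glutathione transferase, had 127 to 169 CPM in KI_Con and 63.8 to 109.8 CPM in WT_Con. Srxn1, which repairs oxidised peroxiredoxins, had 223 to 336 CPM in KI_Con and 172 to 234 CPM in WT_Con. The metallothionein Mt1 had 213, 158, 161 and 215 CPM in KI_Con, against 130, 107.5, 118 and 151 CPM in WT_Con. It had a log2 difference of 0.55 ± 0.15, and 1.20 ± 0.47 in the second set. The ferritin chain Fth1 had 14370 to 17330 CPM in KI_Con and 7468 to 13730 CPM in WT_Con. Of the 7 tested of 11 genes known to differ between C57BL/6 substrains, 0 had an unadjusted p under 0.05 (9.90% of all genes did). Their log2 differences ran from -0.24 to 0.32. The list members Nnt, Crb1, Entpd4 and Entpd4b were not among the counted genes. With so few genes, these values cannot tell the genetic background of KI_Con.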

How the data were processed

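The deposited tables give, per the file headers, whole-number counts of reads per gene that the authors did not normalise. Per the submitters' processing notes, FastQC, Trimmomatic, HISAT2, SAMtools, featureCounts and DESeq2 were used with GRCm38, with no versions; the sources used here state neither the strand setting nor the treatment of multi-mapping reads. Both tables held the same counts for 17007 gene identifiers in 17220 lines, of which 213 repeats were merged, and 16995 identifiers had a position in GENCODE M21. All genes listed had more than 20 counts in at least 5 of the 25 libraries, so genes seen in fewer were not analysed here. Other columns of the deposited tables, such as the authors' own comparisons, were not used.

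The 4 KI_Con and 4 WT_Con libraries were fitted alone with edgeR 4.0.16 in R 4.3.3, using TMM size factors, filterByExpr with its default settings (16813 genes kept), no covariate, the two-sided quasi-likelihood F test and Benjamini-Hochberg adjustment, with a threshold of 0.05. KI_Half vs WT_Half and the genotype by diet interaction were fitted likewise on 13 and 21 libraries. Alternatives were DESeq2 1.42.0, limma 3.58.1 (voom with quality weights), other size factors, no filter, all 25 libraries, a block for the replicate number, covariates for Brunner gland and acinar content, leaving out each library, and leaving out those above 10 CPM of the acinar gene Ctrb1. The script was tested on simulated data with known changes. Replicates of a group differed by more than sampling noise (chi-square per degree of freedom of 38.9 or more).

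Members, the 51 gene lists and tests were chosen with earlier results of these data known, so lists are described by counts and medians with no test. The rule for named genes took called genes first. As none was called, it gave up to 8 genes per direction by smallest p (no receptor segments, no Gm or Rik symbols, no limit on level), from each list its 2 members of lowest p, Aldh2, the substrain genes and the 4 genes with the smallest p within 5 Mb of Aldh2. It gave 122 genes, of which part are named. Erp29, Gm15446, Gm49331, Ighv1-12, Igkv5-43, Ocm, Ostf1, Slc9a4 and Urah were chosen after their values were seen.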

Additional observations from a re-analysis of the deposited data

Results flagged for a closer look

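In groups of 4 libraries, a library was singled out where its gap to the nearest other passed Dixon's 95% critical value for the share of the group's range, which chance gives in about 1 of 20 groups. Of 180 groups 20 were singled out, and 9 of these by WT_Con replicate 3. In that library gastric genes summed to 17000 CPM, Muc5ac had 2045, the mucin-like Mucl3 2488 and the stomach claudin Cldn18 438.6 CPM, tuft cell genes summed to 259.9 CPM and Gm49331 had 3.752 CPM, all above the other WT_Con libraries. Aldh16a1 at 100.1, Slc51a at 73.61 and Urah at 10.83 CPM were below the others. WT_Con replicate 1 stood out by Oas2 at 52.72 and Ifi44 at 25.58 CPM, and WT_Con replicate 2 by Zg16 at 1529 CPM. In KI_Con, replicate 3 was above the others in the Brunner gland sum, 12160 CPM, and in Sox9, 45.90 CPM, and below in Slc6a19, 475.8 CPM. KI_Con replicate 2 was high in Gstm3 at 169.0 CPM and low in Gnat2 at 0.1971 CPM. KI_Con replicate 4 was low in Orai1 at 34.08 CPM and high in the endothelial and lymphatic sum at 412.5 CPM, and KI_Con replicate 1 was low in the neutrophil and mast cell sum at 20.84 CPM.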

How the results depend on the processing

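The count of 0 called genes in KI_Con vs WT_Con was 11 with DESeq2, 2 with limma-voom, 1 with the fit of all 25 libraries and 1 with the Brunner gland covariate (Tmem116 in both), and 0 to 1 when 1 library was left out. It was 0 with the other settings. With the replicate block it was 1, Slc9a4 at a log2 difference of -3.65. The block left 2021 genes at an unadjusted p under 0.05, against 1664. The labels give no source of pairing, and same-numbered deviations correlated at 0.14, 0.207, 0.253 and -0.015, so not every pair passed 0.1 and the numbers were not taken as pairs. As a hint from the data, 6 of 8 libraries correlated best with their own number. Within 5 Mb of Aldh2 the count of 0 became 1 (Tmem116) with DESeq2, limma-voom, all 25 libraries and the Brunner gland covariate, and 0 to 1 when 1 library was left out. The members of all lists had 0 calls, or 2 with DESeq2 (Abca1 and Duoxa2). KI_Half vs WT_Half had 0 calls with edgeR, 172 with DESeq2, 884 with limma-voom and 2 with all 25 libraries, and the interaction 0, 36 with DESeq2 and 1138 with limma-voom. Of 1190 log2 differences of 70 genes under alternatives, 12 turned sign. Without libraries above 10 CPM of Ctrb1, which leaves 2 KI_Con and 1 WT_Con library, they were Car8 0.05, Prom1 0.43, Sox9 0.73, Duox2 0.56, Cldn18 3.6, Muc5ac 9.43, Mucl3 3.06, Nfil3 0.06 and Slc9a4 3.77. Over the fits leaving out 1 library, Cldn18 ran from -7.82 to 0.09 and Muc5ac from -8.3 to 0.64, both highest without WT_Con replicate 3, and Ifi44 from -1.87 to 0.07, highest without WT_Con replicate 1. Of 867 list medians 39 moved by more than the spread between libraries. The causes were not tested. Genes well below 1 CPM, such as Cfap300, rest on few reads per library.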

Other observations

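Goblet cell genes, which make and pack the mucus layer, had a median log2 difference of 0.35 over 14 genes, 9 positive, and 0.42 without WT_Con replicate 3. The list went both ways, with log2 differences from -2.12 to 0.99. Of the 14 genes, 5 were higher and 3 lower at an unadjusted p under 0.05 with edgeR (4.03% and 5.87% of all genes). Without WT_Con replicate 3 these counts were 2 and 0 (2.68% and 2.12%). Zg16, a lectin that keeps bacteria off the epithelium, had 2470, 1375, 1887 and 2455 CPM in KI_Con, against 854, 1529, 877 and 819 CPM in WT_Con. Tff3, the trefoil peptide of goblet cells, had 1025, 594, 803 and 1102 CPM in KI_Con, against 382, 688, 489 and 441 CPM in WT_Con. In both genes KI_Con replicate 2 was the lowest of its group and WT_Con replicate 2 the highest, so the groups overlapped, and edgeR called neither (adjusted p = 0.502). In KI_Half vs WT_Half the median of the goblet list was -0.02.

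Circadian clock genes had a median log2 difference of 0.06 with 12 of 20 positive. Of these 20 genes, 0 were called by edgeR (0.00% of all genes) and 0 had groups that did not overlap (4.58% of all genes). A count of 0 among 20 genes is not far from that share. At an unadjusted p under 0.05 with edgeR 3 were higher and 2 lower (4.03% and 5.87% of all genes). Dbp, a transcription factor under direct clock control, had 165, 135, 153 and 163 CPM in KI_Con, against 142, 112, 75.6 and 92.2 CPM in WT_Con. Nfil3, which binds the same sites with the opposite phase, had 2.62, 3.05, 5.02 and 2.41 CPM in KI_Con, against 6.01, 3.62, 7.68 and 6.94 CPM in WT_Con. The groups overlapped for both genes. The time of day of collection is not given for the control diet. Claudin-2 (Cldn2), a pore-forming junction protein, had 86.2, 112, 147 and 104 CPM in KI_Con, against 106, 173, 344 and 293 CPM in WT_Con. Within each group it was highest where the Brunner gland score was highest, in KI_Con replicate 3 and WT_Con replicate 3. The lower values did not follow that score. WT_Con replicate 2, with a score of 3.55, was above replicate 1, with 11.77. KI_Con replicate 2, with 4.16, was above replicate 4, with 8.45. A link to gland content was not tested.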
